A study of Mus musculus with 16 samples.

Results

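The spread of gene expression between replicate brains was described within each of 4 genotypes of neonatal mice, 4 arrays per genotype. The groups were Cx43 null C57BL mice, Cx43 heterozygous C57BL mice, Cx32 null C57BL mice and wild-type C57BL/6j mice. Connexin 43 and connexin 32 are the products of Gja1 and Gjb1. Brain cDNA in Cy3 was hybridised on 2-colour cDNA arrays beside a Cy5 reference pooled from adult mouse tissues, among them brain, heart, kidney, liver, lung, spleen and stomach. For wild-type replicates 3 and 4 only the reference's dye is labelled. Wild-type replicate 3 bears another replicate number in its channel name than in its title, and was numbered by its title. That the Cx32 null mice were neonatal comes from their descriptions. Which exon the lines lack, whether a line goes back to 1 founder, and how many animals gave each sample are not given in the sources used here, so every p-value here rests on differences among samples that may in part be technical.

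The members were all genes with a single symbol and a value on all 16 arrays. There were 6496 of them, out of 10225 genes with a single symbol on 28704 spots. Each array was centred on its median, spots of 1 gene were averaged, and the standard deviation (SD) of the log2 ratio over the 4 arrays of a genotype was taken as the spread of that gene in that genotype. A gene is called looser in one genotype than in another where its SD is higher, and tighter where it is lower. An SD of 1 means that single arrays typically lie a factor of 2 from the mean of their genotype. The labels mention no repeat hybridisation of the same extract, so differences between animals, dissections, extracts, labellings and hybridisations cannot be told apart in these SDs.

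Gap junction channels are built from connexins and let ions and small metabolites pass between neighbouring cells. In the brain, connexin 43 joins mainly astrocytes and their radial glia precursors and is also made by meningeal and blood vessel cells, whereas connexin 32 is made mainly by oligodendrocytes and, outside the brain, by Schwann cells and liver. Some genes are known to hold a steady level between individuals, among them many genes of basic cell upkeep. Others vary with the state of the animal, such as genes of metabolism, immunity and stress, or with how much of a neighbouring tissue comes along in a dissection, such as globins, liver plasma proteins and muscle proteins. In bulk RNA, fewer cells of a type and less RNA per cell cannot be told apart.

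Some libraries and some parts of the arrays stood apart. In the order of the table the spots fall into 48 blocks of 598. On most arrays the values of a block followed the median of the other 15 arrays closely, but 5 blocks were out of step on at least 1 array, meaning that their correlation with the other arrays fell below 0.75 of that array's typical value. Blocks 13, 18 and 20 were out of step on wild-type replicate 4 (correlation 0.002 in block 13, against a typical 0.888 on that array), and block 41 on wild-type replicate 3 (0.22 against 0.851). Block 25 was out of step on Cx43 null replicate 2, Cx43 heterozygous replicate 4, Cx32 null replicate 1 and all 4 wild-type arrays. These blocks hold 507 of the 6496 genes, which are marked as out of step wherever they are named. Gja1, the gene of the Cx43 lines, read -0.60, -1.71, -2.10 and -2.92 on the Cx43 null arrays and -1.09, -1.27, -1.25 and -1.86 on the Cx43 heterozygous arrays. It read 0.13, 0.10, -0.07 and 0.27 on the Cx32 null arrays, against 2.47, 1.13, 1.48 and 1.17 in wild type. The array labelled Cx43 null replicate 1 thus read higher for Gja1 than all 4 heterozygous arrays, and values of the Cx43 null group are given with and without it where they turn on it. The labels do not say whether the spotted Gja1 clone covers the deleted part, and no spot was named Gjb1, so the Cx32 line could not be checked.

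Of the 4 groups, wild-type brains had the highest median SD on these arrays. The median SD of a gene was 0.264 in Cx43 null, 0.180 in Cx43 heterozygous and 0.197 in Cx32 null brains, against 0.397 in wild-type brains (SD of log2 ratios, n = 4 arrays each). Genes with an SD above 1 numbered 46 in Cx43 null, 22 in Cx43 heterozygous and 42 in Cx32 null brains, against 302 in wild type. Genes with an SD below 0.1 numbered 387, 1107 and 820 in the same 3 lines, against 159 in wild type. On the 5989 genes outside the out-of-step blocks the medians were 0.265, 0.180 and 0.199 in Cx43 null, Cx43 heterozygous and Cx32 null brains, against 0.391 in wild type, and the genes above 1 numbered 40, 17 and 35, against 237.

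**Figure D1:**
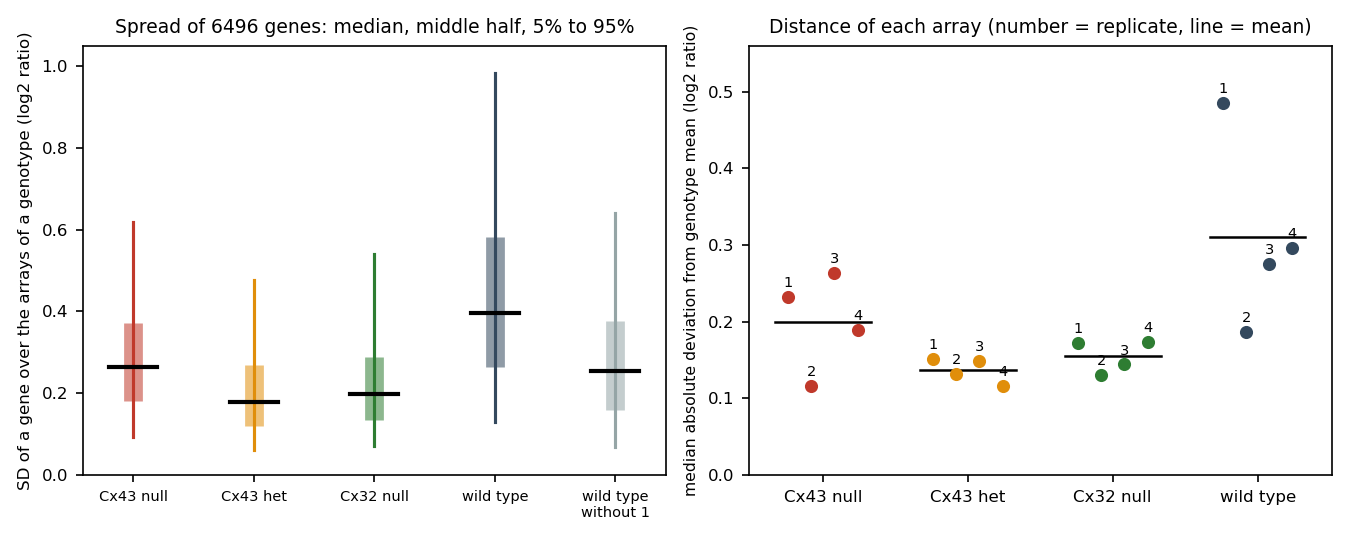
Left, the SD of the log2 ratio of each of 6496 genes within a genotype, with the median as a black line, the middle 50% of genes as a thick bar and the range from 5% to 95% as a thin line. Right, the distance of each array from its genotype mean as the median absolute deviation over genes, scaled for group size. Wild type has the highest median at 0.397 with 4 arrays and 0.255 without replicate 1, and wild-type replicate 1 lies farthest out at 0.485.

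1 array carried most of the wild-type spread. The distance of an array from its genotype was taken as its median absolute deviation from the genotype mean over genes, scaled for group size. For wild-type replicates 1 to 4 it was 0.485, 0.186, 0.275 and 0.296. It was 0.232, 0.116, 0.263 and 0.189 for Cx43 null, 0.151, 0.131, 0.148 and 0.116 for Cx43 heterozygous, and 0.172, 0.130, 0.144 and 0.173 for Cx32 null replicates 1 to 4. All 4 heterozygous and all 4 Cx32 null arrays lay closer to their mean than any wild-type array did to its own, whereas the Cx43 null arrays overlapped with wild type. Wild-type replicate 1 was the farthest of its 4 arrays for 53.5% of genes and held 52.0% of the squared deviation of the group.

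Without wild-type replicate 1 the median SD in wild type was 0.255 over the remaining 3 arrays. An SD over 3 values is typically a little lower than one over 4, so the lines are set beside it here with 3 arrays each, leaving out every array in turn. Such medians lay between 0.206 and 0.294 in Cx43 null, between 0.161 and 0.181 in Cx43 heterozygous and between 0.178 and 0.201 in Cx32 null brains. The wild-type value without replicate 1 therefore fell inside the range of Cx43 null and above the ranges of the other lines. Without the array labelled Cx43 null replicate 1 the Cx43 null median was 0.231.

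Each pair of genotypes was compared by an exact permutation test of the 8 array distances, which has 70 splits and cannot give a 2-sided p below 0.0286. The distances of a genotype are all taken from its own mean, so they are not independent. An array that lies far out also shifts the distances of the others in its group, and these p-values do not allow for that. The ratio of median SDs was 0.453 for Cx43 heterozygous over wild type and 0.497 for Cx32 null over wild type, and each reached that smallest p (exact permutation p = 0.0286, adjusted p = 0.0857 over 6 pairs). With 1 array left out at a time, the exact permutation p of these pairs rose to at most 0.0571 and 0.114. For Cx43 null over wild type the ratio was 0.665 (exact permutation p = 0.171, adjusted p = 0.257). Without wild-type replicate 1 the Cx43 heterozygous and Cx32 null ratios were 0.705 and 0.774, and the Cx43 null ratio turned to 1.035. Without the array labelled Cx43 null replicate 1 the Cx43 null ratio was 0.582 to wild type, 1.285 to Cx43 heterozygous and 1.17 to Cx32 null brains. Among the lines the ratio was 1.47 for Cx43 null over Cx43 heterozygous, 1.34 for Cx43 null over Cx32 null and 0.912 for Cx43 heterozygous over Cx32 null (exact permutation p = 0.114, 0.229 and 0.257). No pair passed after adjustment, so the order of the 4 genotypes is a description of these 16 arrays.

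Counted gene by gene, 71.2% of genes were tighter in Cx43 null, 82.5% in Cx43 heterozygous and 79.5% in Cx32 null brains than in wild type. Without wild-type replicate 1 these shares were 47.3%, 64.1% and 60.5%. An SD at most 0.5 of the wild-type SD was found for 34.7% of genes in Cx43 null, 53.5% in Cx43 heterozygous and 49.6% in Cx32 null brains, and without wild-type replicate 1 for 16.1%, 32.3% and 27.5%. An SD at least 2 times the wild-type SD was found for 7.84%, 4.05% and 5.65% of genes, and without wild-type replicate 1 for 21.1%, 12.8% and 15.6%. Between lines, 32% of genes had an SD at least 2 times as high in Cx43 null as in Cx43 heterozygous brains and 8.33% an SD at most 0.5 of it. For Cx43 null against Cx32 null brains these shares were 28.3% and 11.3%, and for Cx43 heterozygous against Cx32 null brains 13.6% and 20.8%.

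Genes of mitochondria, ribosomes, protein turnover and protein folding were loose in wild type, and most of them read highest on wild-type replicate 1. Respiratory chain and ATP synthase genes (55 measured), which make the machinery of mitochondrial ATP production, had a median SD of 0.21 in Cx43 null, 0.18 in Cx43 heterozygous and 0.26 in Cx32 null brains, against 0.71 in wild type and 0.29 in wild type without replicate 1. Their median deviation on wild-type replicate 1 was 0.94, against -0.34, -0.47 and -0.18 on replicates 2 to 4, and 47 of the 55 read highest there and 0 lowest. Over all 6496 genes 43.9% read highest and 33.1% lowest on that array. Cytosolic ribosomal protein genes (58 measured) had median SDs of 0.17, 0.15 and 0.24 in the Cx43 null, Cx43 heterozygous and Cx32 null lines, against 0.64 in wild type and 0.28 without replicate 1, and 49 of 58 read highest on it. For proteasome subunits (32 measured), which degrade tagged proteins, 24 read highest there, and for chaperones (38 measured), which fold proteins, 29 did. Their wild-type median SDs of 0.62 and 0.60 became 0.24 and 0.23 without that array.

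The ATP synthase stalk subunit gene Atp5pb shows the pattern at its steepest. It read 0.35, 0.13, -0.76 and 0.02 in Cx43 null, -0.61, -0.01, -0.24 and -0.53 in Cx43 heterozygous and 0.35, 0.21, -0.10 and -0.31 in Cx32 null brains. In wild-type brains it read 4.11, -0.10, 0.25 and 0.10. A single wild-type array stood about 4 log2 units above the other 3, which lay within the range of the lines. The wild-type SD was 2.02, and 0.18 without replicate 1. Ybx1, which encodes an RNA-binding protein, read 0.85, 0.24, 0.62 and 0.70 in Cx43 null brains, against 4.35, 0.52, 0.13 and 0.74 in wild type. Morf4l2, which encodes a chromatin protein, read 1.59, 1.79, 1.74 and 1.76 in Cx43 heterozygous brains, against 5.15, 2.43, 1.97 and 1.79 in wild type. Each of these genes was read by 1 spot.

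Other gene groups were no looser in wild type than genes at large, or stayed loose without that array. Zinc finger proteins named Zfp (90 measured) and solute carriers (92 measured) had wild-type median SDs of 0.40 and 0.37, close to the 0.397 of all genes, and 35 and 31 of them read highest on wild-type replicate 1. Immediate early genes (5 measured), which respond fast to neuronal activity, had 0.29, 0.23 and 0.30 in the Cx43 null, Cx43 heterozygous and Cx32 null lines, against 0.22 in wild type. Meningeal genes (6 measured) stayed loose in wild type without replicate 1, with a median SD of 0.51 against 0.62 with it. In Cx43 null brains the same list had 0.68, and 0.70 without replicate 1, the highest median of any list with 5 or more members in that genotype.

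**Figure D2:**
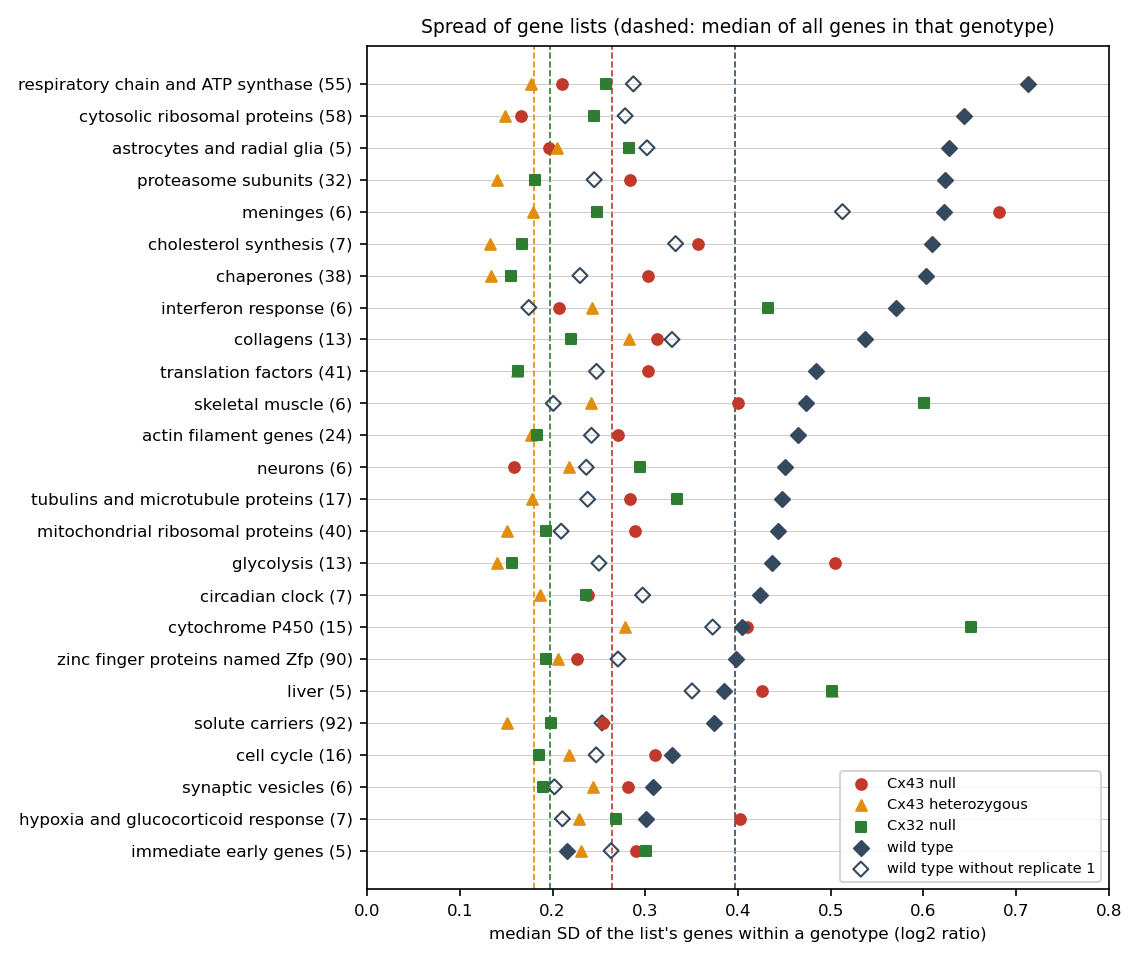
Median SD of the genes of each list within a genotype (x axis, log2 ratio) for lists with 5 or more measured genes, number of genes in brackets; filled symbols are the 4 genotypes, open diamonds wild type without replicate 1, and dashed lines the medians of all genes. Respiratory chain genes lie at 0.71 in wild type and at 0.29 without replicate 1, glycolysis genes at 0.50 in Cx43 null against 0.14 in Cx43 heterozygous brains, and cytochrome P450 genes at 0.65 in Cx32 null brains.

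Over all 4 arrays of Cx43 null brains, meningeal and glycolytic genes had the highest median SDs of the lists with 5 or more measured genes. Glycolysis and glucose uptake genes (13 measured) had a median SD of 0.50 in Cx43 null brains, 0.14 in Cx43 heterozygous and 0.16 in Cx32 null brains, against 0.44 in wild type. Without replicate 1 of the group it was 0.33 in Cx43 null brains and 0.25 in wild type. Glycolytic genes then lost their rank in Cx43 null brains, where skeletal muscle (0.45) and liver genes (0.44), among others, had higher medians. Of the 13 genes, 11 had an SD at least 2 times as high in Cx43 null as in Cx43 heterozygous brains and 9 as in Cx32 null brains, where 32% and 28.3% of all genes did. Of the 13 genes, 5 lay on out-of-step blocks. Their median deviation was 0.62 on the array labelled Cx43 null replicate 1, -0.08 and -0.18 on replicates 2 and 3, and -0.53 on replicate 4. Gapdh, a glycolytic dehydrogenase gene, read 2.05, 0.38, 0.60 and 0.09 on the Cx43 null arrays, against 2.15, 1.67, 1.25 and 1.23 in wild type. Pgk1, which encodes phosphoglycerate kinase and lies on block 41, read 1.86, 0.38, 0.25 and -0.05 in Cx43 null brains, against 2.07, 1.15, 1.22 and 0.92 in wild type. On both genes the array labelled Cx43 null replicate 1 read within the wild-type range and the other 3 Cx43 null arrays below it. Without replicate 1 the Cx43 null SDs of Gapdh and Pgk1 were 0.25 and 0.22, against 0.87 and 0.85 with it. Hk1, a hexokinase gene with 1 of its spots on block 13, had an SD of 0.08 in Cx43 null brains, so not every member of the list was loose.

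The meningeal list pointed to another Cx43 null array. Its median deviation was -0.94 on Cx43 null replicate 3, against 0.12, 0.34 and -0.12 on replicates 1, 2 and 4, and 4 of the 6 genes read lowest there. Ptgds, the gene of prostaglandin D synthase that the meninges secrete into cerebrospinal fluid, read 0.43, 0.62, -1.63 and -0.31 in Cx43 null brains, against 2.60, 2.22, 1.94 and 0.95 in wild type. Not every member of the list was loose or low. Slc6a13 had an SD of 0.12 in Cx43 null brains, and 1 of the 6 genes read highest on Cx43 null replicate 3. Proteasome subunit genes were low on the same array (29 of 32 lowest) and so were cell cycle genes (14 of 16), where 34.7% of all genes read lowest on it. Muscle, liver and cytochrome P450 genes were high on it, with median deviations of 0.43, 0.40 and 0.30. The part of neighbouring tissue in these differences was not tested.

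Across all genes, the spread of the Cx43 null group lay mainly between these arrays. The first axis of the deviations held 56.3% of them and set replicate 1 (loading 0.72) against replicate 3 (-0.68). The array labelled Cx43 null replicate 1 correlated with the wild-type arrays at a median r of 0.900 over genes and with the arrays of the other lines at 0.842. For replicates 2, 3 and 4 the order was the other way, with 0.858 against 0.916, 0.717 against 0.868 and 0.823 against 0.916. The deviation of replicate 1 from the Cx43 null mean correlated at r = 0.636 over genes with the difference of wild type minus the other lines, and that of replicate 3 at -0.460. These are descriptions over genes of arrays that share 1 reference and carry no test.

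**Figure D3:**
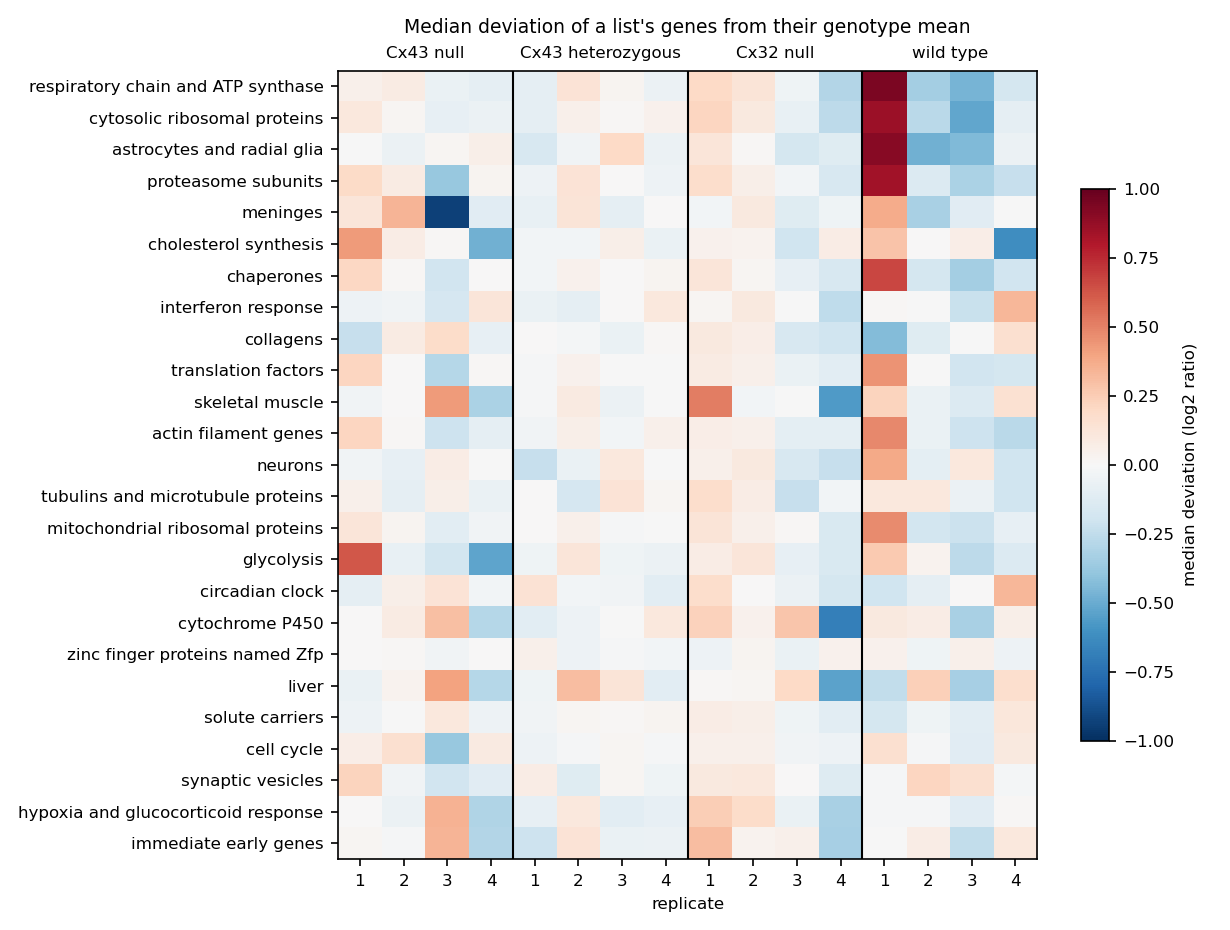
Median deviation of the genes of each list with 5 or more measured genes (rows) from their genotype mean on each of the 16 arrays (columns), in log2 ratio, red above and blue below the mean. The darkest red cells in the plot are those of respiratory chain, astrocyte, ribosomal and proteasome genes on wild-type replicate 1 (0.94, 0.91, 0.86 and 0.84) and the darkest blue cell is meninges on Cx43 null replicate 3 (-0.94).

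In Cx32 null brains the lists with the highest median SDs were those of blood, liver and muscle. Cytochrome P450 genes (15 measured), which oxidise steroids and foreign compounds and are made mostly in liver, had a median SD of 0.65 in Cx32 null brains, against 0.40 in wild type, where the median of all genes was 0.197 and 0.397. Of the 15 genes, 11 read lowest on Cx32 null replicate 4, as did 37.9% of all genes, and their median deviation there was -0.68. Low readings on that array were not particular to such lists. There, 47 of 55 respiratory chain genes and 47 of 58 cytosolic ribosomal protein genes also read lowest. Cyp2e1, an ethanol-oxidising liver enzyme gene, read -3.24, -3.08, -1.26 and -4.31 in Cx32 null brains, against -2.06, -2.48, -2.95 and -2.73 in wild type. The highest and the lowest of these 8 values were both from the Cx32 null group. Of the 15 genes, 4 had an SD at least 2 times that of wild type, where 5.65% of all genes did. Another 3 had an SD at most 0.5 of it, where 49.6% of all genes did. Skeletal muscle genes (6 measured) had median SDs of 0.40 in Cx43 null, 0.24 in Cx43 heterozygous and 0.60 in Cx32 null brains, against 0.47 in wild type and 0.20 in wild type without replicate 1, and their median deviation was 0.51 on Cx32 null replicate 1 and -0.56 on replicate 4. Myh3, the gene of embryonic myosin heavy chain, read -0.99, -1.38, -1.08 and -2.33 in Cx32 null brains and -0.34, -0.70, -0.07 and -2.26 in Cx43 null brains, against -1.46, -0.34, -0.62 and -0.28 in wild type. Not every member of the cytochrome P450 and muscle lists was loose, as Cyp20a1 and Actn3 had SDs of 0.07 and 0.06 in Cx32 null brains. Red blood cell genes (4 measured) had median SDs of 0.59, 0.24 and 0.67 in Cx43 null, Cx43 heterozygous and Cx32 null brains, against 0.68 in wild type. Without replicate 1 of the group they had 0.47 in Cx43 null brains and 0.43 in wild type. Hbb-b1, the adult beta globin gene, ranged from -2.90 to -1.18 in Cx43 null, from -2.28 to -1.67 in Cx43 heterozygous and from -2.08 to -1.54 in Cx32 null brains, against -2.12 to -0.17 in wild type.

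Cx43 heterozygous brains had the lowest median SD of the 4 genotypes in 16 of 25 lists with 5 or more measured genes. Over all 6496 genes their median SD of 0.180 was also the lowest, so such lists followed the genes at large. Glycolysis, chaperones, cholesterol synthesis, proteasome, ribosomal and translation factor genes all had heterozygous median SDs between 0.13 and 0.16. The liver list (5 measured) was an exception at 0.50 in Cx43 heterozygous brains, 0.43 in Cx43 null and 0.50 in Cx32 null brains, against 0.38 in wild type. Panx1, which encodes a membrane channel protein related in shape to connexins, was another, with 4.43, 2.75, 3.74 and 4.26 in Cx43 heterozygous brains, against 2.91, 1.63, 1.83 and 1.61 in wild type. Its SD was 0.76 in Cx43 heterozygous brains and 0.62 in wild type, or 0.12 without replicate 1. Gja1 itself was loosest in the Cx43 null line, with SDs of 0.96 in Cx43 null, 0.34 in Cx43 heterozygous and 0.14 in Cx32 null brains, against 0.63 in wild type. Without replicate 1 of the group the Gja1 SD was 0.62 in Cx43 null brains and 0.19 in wild type. The Cx43 null SD thus lay above that of wild type with 4 arrays each, and with replicate 1 left out of both groups. With only the array labelled Cx43 null replicate 1 left out, its 0.615 lay just below the 0.627 of the 4 wild-type arrays.

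Among markers of the brain's own cells, neuron, astrocyte and microglia genes had their highest median SD in wild type with all 4 arrays. Of the lines, Cx32 null brains were loosest for neurons and astrocytes, and Cx43 null brains for microglia. Oligodendrocyte genes (2 measured) had 0.53 in Cx43 null, 0.13 in Cx43 heterozygous and 0.24 in Cx32 null brains, against 0.34 in wild type. Neuron genes (6 measured) had median SDs of 0.16 in Cx43 null, 0.22 in Cx43 heterozygous and 0.29 in Cx32 null brains, against 0.45 in wild type and 0.24 in wild type without replicate 1. Astrocyte and radial glia genes (5 measured) had 0.20, 0.20 and 0.28 in the same lines, against 0.63 in wild type and 0.30 without replicate 1, and all 5 read highest on wild-type replicate 1. Microglia genes (4 measured) had 0.44, 0.17 and 0.33, against 0.53 in wild type and 0.35 without replicate 1. Sex chromosome genes (4 measured) included Eif2s3y, a Y-linked translation factor gene, whose 16 values lay between -0.62 and 0.97 with an SD of 0.52 in Cx43 null, 0.51 in Cx43 heterozygous and 0.38 in Cx32 null brains, against 0.56 in wild type. No skin gene of the list had a value on all 16 arrays.

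A small set of genes was tight in every genotype. There were 187 genes with an SD below 0.2 in all 4, 170 of them outside the out-of-step blocks. The 10 tightest by their highest SD were Rab11fip5, Ide, Ankrd10, Ppp1r21, Slc31a1, Vps51, Zkscan17, Trappc10, Ulk2 and Cad (out of step). Several of them work in membrane traffic: Rab11fip5 encodes an effector of endosome recycling, and Vps51 and Trappc10 encode subunits of tethering complexes. The share of such genes among all genes was not counted. Most of the 10 were averaged over more than 1 spot, whereas 4403 of all 6496 genes were read by 1. Genes read by more spots had lower median SDs. Others encode the insulin-degrading enzyme (Ide), a copper transporter (Slc31a1), a kinase that starts autophagy (Ulk2) and the enzyme of the opening steps of pyrimidine synthesis (Cad). Ankrd10, an ankyrin repeat gene read by 4 spots, read 0.30, 0.40, 0.36 and 0.33 in Cx43 null, 0.31, 0.45, 0.44 and 0.33 in Cx43 heterozygous and 0.34, 0.44, 0.22 and 0.42 in Cx32 null brains, against 0.55, 0.39, 0.28 and 0.42 in wild type. All 16 values fell within a range of about 0.3 log2 units. Vps51, also read by 4 spots, read 0.17, 0.16, 0.15 and 0.17 in wild-type brains, an SD of 0.0081, and 0.24, 0.16, 0.01 and -0.01 in Cx43 null brains, an SD of 0.12.

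Few genes were loose in every genotype. There were 14 genes with an SD above 0.5 in all 4, of which 7 lay outside the out-of-step blocks. With wild-type replicate 1 left out, 7 of the 14 fell below 0.5 in wild type, Gm3924, Plxna4, C1galt1 and Gstp1 among them. The 10 loosest by their lowest SD were Gm3924, Plxna4, Vrk3, C1galt1, Nppa, Gstp1, H2-Ab1, Rgs12, Lgals9 and Scgb1a1, and Gm3924, Vrk3, Nppa and Gstp1 were out of step. Plxna4, which encodes a semaphorin receptor of axon guidance, read 0.66, 0.93, 1.42 and 2.42 in Cx43 null, 2.59, 0.62, 2.08 and 1.68 in Cx43 heterozygous and 2.24, 2.44, 0.88 and 2.92 in Cx32 null brains, against -1.24, -0.43, 0.30 and 0.39 in wild type. Its SDs were 0.77, 0.84 and 0.87 in the Cx43 null, Cx43 heterozygous and Cx32 null lines, against 0.76 in wild type and 0.45 without replicate 1. H2-Ab1, which encodes a class II antigen-presenting chain, and Lgals9, the galectin 9 gene, are genes of immune cells. H2-Ab1 read -2.78, -3.07, -2.46 and -3.77 in Cx43 null brains, against -2.97, -4.40, -5.36 and -2.31 in wild type, with SDs of 0.56 and 1.38. Scgb1a1 encodes a secreted protein of the airways and had a mean log2 ratio of -5.64, far on the side of the reference.

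**Figure D4:**
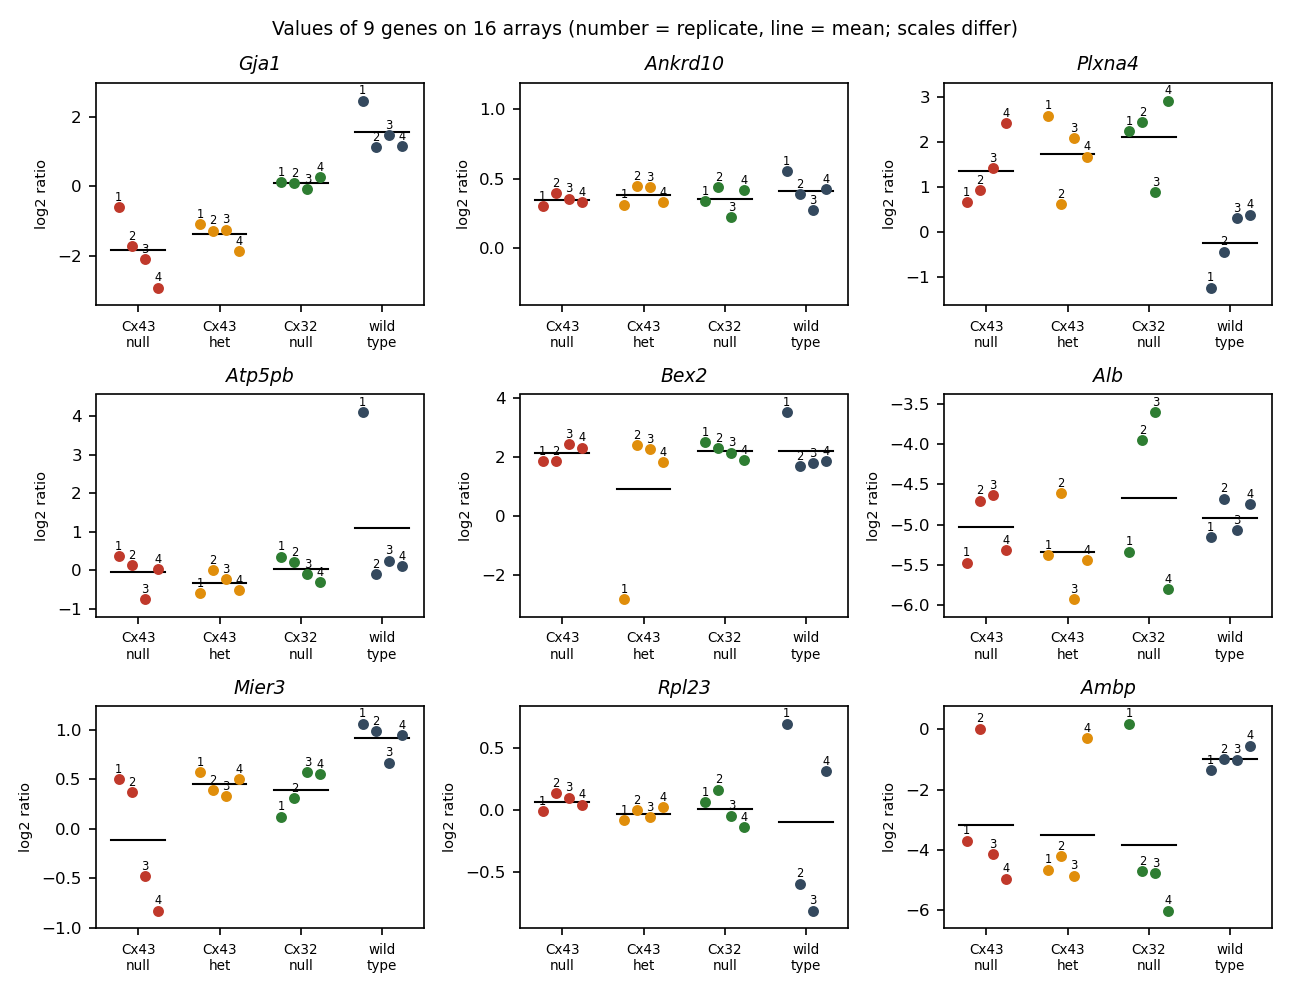
Log2 ratio (y axis, scales differ) of 9 genes on the 16 arrays, with replicate numbers beside the points and a line at the genotype mean. Ankrd10 is tight and Plxna4 loose in every genotype over 4 arrays; 1 array stands apart for Atp5pb (wild-type replicate 1, 4.11) and Bex2 (Cx43 heterozygous replicate 1, -2.83); Rpl23 falls into 2 pairs in wild type; and Ambp lies on an out-of-step block.

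Many of the largest SDs within a genotype were of genes on block 25 or another out-of-step block. Ambp, which encodes a liver-made plasma protein, had an SD of 2.20 in Cx43 null, 2.15 in Cx43 heterozygous and 2.74 in Cx32 null brains, against 0.33 in wild type. It read 0.02 on Cx43 null replicate 2, -0.30 on Cx43 heterozygous replicate 4 and 0.19 on Cx32 null replicate 1, between -6.02 and -3.69 on the other 9 arrays of the lines, and between -1.36 and -0.54 in wild type. Phospho2, a phosphatase gene, read 1.36, 1.60 and 1.49 on the same 3 arrays of the lines and 1.35, 1.23, 1.84 and 1.78 in wild type, against values between -2.52 and -1.70 on the other 9 arrays of the lines. These are the 7 arrays on which block 25, which holds Ambp, Phospho2, Gm3924, Vrk3, Gstp1 and Myh14, was out of step. In wild type, 4 of the 5 largest SDs (Apoc1, Hsd11b1, Fam169b and Nppa) were of genes on blocks 13 and 41. Apoc1, an apolipoprotein gene on block 13, read -5.49, 0.25, 0.43 and 0.79 in wild type and between -6.37 and -4.33 in the lines. Its wild-type values differed also between replicate 1 and replicates 2 and 3, on which that block was in step. Hsd11b1, the gene of an enzyme that regenerates glucocorticoids, read -1.99, -2.72, -2.96 and 1.94 in wild type.

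Outside those blocks the loosest genes differed from line to line, though some were also loose in wild type. Tuba8 and Tuba4a, which encode alpha tubulins, and Clptm1l, a membrane protein gene, had SDs of 1.91, 1.73 and 1.72 in Cx43 null brains, against 0.29, 0.42 and 0.32 in Cx43 heterozygous brains. In wild type their SDs were 1.385, 0.692 and 1.712, and 1.683, 0.187 and 0.083 without wild-type replicate 1. Without replicate 1 their Cx43 null SDs were 2.08, 1.63 and 0.99. Tuba4a read 2.88, 1.27, -1.18 and 1.90 and Clptm1l 3.76, 1.44, -0.41 and 1.13 in Cx43 null brains, so that replicate 1 read highest and replicate 3 lowest on both genes. In wild type Clptm1l read -0.45, 2.88, 3.04 and 2.98. In Cx43 heterozygous brains the loosest gene was Bex2, a brain-expressed X-linked gene, at -2.83, 2.40, 2.25 and 1.83, followed outside the blocks by Gkn2, a gastrokine gene of the stomach lining, at -4.39, -4.51, -4.30 and -0.51. In Cx32 null brains Serpinf2, the gene of the liver-made plasmin inhibitor, read -1.98, -5.71, -5.13 and -6.20, and Prm2, the gene of a sperm nuclear protein, read -3.96, -6.94, -7.43 and -8.28. On both genes Cx32 null replicate 1 read highest by more than 2 log2 units. No gene passed a test between lines, so these are descriptions of 4 arrays each.

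Each gene was also tested for a difference in spread. Absolute deviations from the genotype mean were compared in limma across 9829 features, which are the 6496 genes and 3333 spots without a single symbol, and the threshold was a p of 0.05 after Benjamini-Hochberg adjustment over all features. Against wild type, 38 features were tighter (0.387%) and 1 looser (0.0102%) in Cx43 null brains, 135 tighter (1.37%) and 5 looser (0.0509%) in Cx43 heterozygous brains, and 70 tighter (0.712%) and 6 looser (0.061%) in Cx32 null brains. Between lines 0 features passed in limma in any of the 3 pairs, with 886, 906 and 535 features at an unadjusted p under 0.05 for Cx43 null against Cx43 heterozygous, Cx43 null against Cx32 null and Cx43 heterozygous against Cx32 null. Quantile scaling gave 3, 8 and 2 features in these pairs. Among named genes 29, 89 and 50 passed against wild type in Cx43 null, Cx43 heterozygous and Cx32 null brains, of which 11, 23 and 20 were out of step. Tests on deviations from the mean are known to pass too many genes in small groups, and with deviations from the median 8, 12 and 11 of these genes passed. Without wild-type replicate 1 15, 36 and 24 of them passed. The 3 comparisons share the wild-type arrays, so genes called in more than 1 of them are not independent.

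The test itself favours genes whose 4 wild-type deviations are of nearly equal size, which values in 2 pairs give. Accordingly, of the 105 named genes called in any line, 82 (78.1%) had wild-type values in 2 pairs, with the widest gap between the middle values in order of size, against 18.3% of all genes, an excess that the choice by this test builds in. In 50 of the 82 (61.0%) wild-type replicates 1 and 4 lay on one side and 2 and 3 on the other, against 41.6% of such genes overall. Ccdc122, a coiled-coil protein gene, Rpl23 and Rps15a, ribosomal protein genes, and Jpt2 passed in all 23 alternative settings in at least 1 line. They were singled out after their values were seen. Rpl23 read -0.01, 0.14, 0.10 and 0.05 in Cx43 null brains and -0.08, 0.00, -0.05 and 0.02 in Cx43 heterozygous brains, against 0.69, -0.59, -0.81 and 0.31 in wild type. Its SD ratio to wild type was 0.091 in Cx43 null (limma adjusted p = 0.0048) and 0.067 in Cx43 heterozygous brains (limma adjusted p = 0.0034), with ranges over the alternatives from 0.0023 to 0.027 and from 0.0014 to 0.021. Rps15a had an SD of 0.024 in Cx43 heterozygous brains, against 0.54 in wild type (limma adjusted p = 0.0034). Ccdc122 had SDs of 0.20, 0.24 and 0.26 in Cx43 null, Cx43 heterozygous and Cx32 null brains, against 1.02 in wild type, where it read 0.82, 0.90, -0.79 and -1.01 (limma adjusted p = 0.0014, 0.00088 and 0.0025).

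The largest falls in spread past the test in Cx43 null brains were for Tmsb10, Abca2, Ralgds and Poldip2, all on block 13, and Pla2g12b, a secreted phospholipase gene. Pla2g12b had an SD of 0.23 in Cx43 null brains, against 1.14 in wild type. In Cx43 heterozygous brains they were for Fam169b and Sez6, which were out of step, and for Ybx1, Ppat, the gene of the committed step of purine synthesis, and Morf4l2. Their SDs were 0.18, 0.023 and 0.088 for Ybx1, Ppat and Morf4l2, against 1.96, 1.52 and 1.57 in wild type. Leaving out wild-type replicate 1, the wild-type SDs were 0.31 for Ybx1 and 0.33 for Morf4l2, which no longer passed (limma adjusted p = 0.60 and 0.26), and 1.68 for Ppat, which did (limma adjusted p = 0.0051). Ppat passed in only 8 of 23 alternative settings, and not with deviations from the median (limma adjusted p = 0.38). In Cx32 null brains they were for Fam169b, Ddx19b, Tmsb10, Ralgds and Abca2, all out of step. Abca2, a lipid transporter gene, read 0.70, -0.98, -1.10 and 1.40 in wild type, so its values differed also among arrays on which its block was in step.

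Named genes looser than wild type past the test were few. Mier3, which encodes a chromatin-associated protein and is read by 2 spots, read 0.50, 0.37, -0.48 and -0.83 in Cx43 null brains, against 1.06, 0.98, 0.67 and 0.95 in wild type. Its Cx43 null arrays fell into 2 pairs below all wild-type arrays, with SDs of 0.65 and 0.17 (limma adjusted p = 0.034, over alternatives from 0.0029 to 0.12). Cox6c, a cytochrome oxidase subunit gene, read -1.01, -0.37, 2.07 and 1.19 in Cx43 heterozygous brains, against -0.64, -1.05, -1.46 and -0.74 in wild type, with SDs of 1.41 and 0.37 (limma adjusted p = 0.042, over alternatives from 0.0038 to 0.16). It was the 1 member of the respiratory chain list that was looser past the test in a line. In Cx32 null brains the looser genes were Alb (serum albumin), Dio1 (a thyroid hormone deiodinase of liver and kidney) and Zdhhc15 (a palmitoyl transferase). Alb read -5.33, -3.95, -3.60 and -5.80 in Cx32 null brains, against -5.15, -4.68, -5.07 and -4.75 in wild type, with SDs of 1.06 and 0.23 (limma adjusted p = 0.034, over alternatives from 0.0048 to 0.20). Zdhhc15 read -0.51, -0.58, 0.32 and 0.48 in Cx32 null brains, against -0.20, -0.09, 0.00 and -0.34 in wild type. None of these 5 genes passed with deviations from the median, where the limma adjusted p was 0.118 or higher.

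The lists that were loose in wild type were also counted gene by gene. Among cytosolic ribosomal protein genes 4, 6 and 3 of 58 were tighter past the test than in wild type in Cx43 null, Cx43 heterozygous and Cx32 null brains, and 0 looser, where 28, 88 and 47 of all 6496 genes were tighter. This difference between the list and all genes was not tested. An SD at most 0.5 of wild type was found for 46, 45 and 37 of the 58, where the shares of all genes were 34.7%, 53.5% and 49.6%. Dropping wild-type replicate 1, it was found for 25, 22 and 14 of the 58, where the shares of all genes were 16.1%, 32.3% and 27.5%. Among respiratory chain genes the same counts were 38, 47 and 40 of 55, and without wild-type replicate 1 15, 18 and 8. Among chaperones they were 15, 31 and 31 of 38, and 4, 17 and 16 without it. Among zinc finger proteins they were 31, 35 and 42 of 90, and 20, 26 and 26 without it. Cytosolic ribosomal protein genes in Cx43 null brains thus had a share of 25 of 58 beside 16.1% of all genes, while chaperones in the same brains had 4 of 38.

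Looseness was shared between genotypes to a small degree. The rank correlation of SDs over 6496 genes was 0.256 between Cx43 heterozygous and Cx32 null brains, and between 0.0712 and 0.146 for the other 5 pairs of genotypes. Of the loosest 10% of genes in Cx43 heterozygous brains 31.2% were also among the loosest 10% in Cx32 null brains, and between 12% and 21.4% were shared for the other pairs, where unrelated lists would share 10%. Of the tightest 10%, between 10.9% and 13.4% were shared in any pair. The loosest 10% of all 4 genotypes had 10 genes in common and the tightest 10% had 1, where unrelated lists would have 0.65. Genes read by several spots and genes at low levels share those properties across genotypes, and both moved with the SD.

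The median SD was 0.284, 0.202 and 0.219 in Cx43 null, Cx43 heterozygous and Cx32 null brains, against 0.425 in wild type, for the 4403 genes read by 1 spot. For the 137 genes read by 4 or more spots it was 0.209, 0.133 and 0.132, against 0.263 in wild type. Over 1918 genes with at least 2 spots outside the out-of-step blocks, the deviations of a pair of spots of a gene on the same array correlated at r = 0.251 in Cx43 null, 0.105 in Cx43 heterozygous and 0.180 in Cx32 null brains, against 0.261 in wild type, so most of a spot's deviation was not seen by the other spot of its gene. By level, the 64 genes with a mean log2 ratio under -3 had median SDs of 0.465 in Cx43 null, 0.458 in Cx43 heterozygous and 0.710 in Cx32 null brains, against 0.538 in wild type. The 2302 genes between 0 and 1 had 0.253, 0.173 and 0.178, against 0.401 in wild type. Genes far below 0 are those of the adult tissues in the reference, such as Alb, Scgb1a1, Prm2 and Gkn2, and signal over background is not known for any spot.

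A TATA box is known, from yeast above all, to be more frequent in promoters of genes whose expression varies, and promoters were searched for it. The letters TATAAA were looked for on the gene's own strand only, starting 40 to 20 bases before the gene start, in RefSeq promoters of GRCm38.p6, which 5208 of the 6496 genes had. The motif stood in 86 of them (1.65%), in 650 of all 27025 genes with a promoter (2.405%) and in 655 of all 32851 promoters (1.99%). Ranked by the root mean variance over the 4 genotypes, 2 of 521 genes in the tightest 10% held it (0.384%) and 13 of 521 in the loosest 10% (2.50%). Among genes read by 1 spot these counts were 0 of 175 and 13 of 470, and among genes with a mean log2 ratio from -1 to 1 they were 1 of 488 and 4 of 293. By genotype the shares in the tightest and the loosest 10% were 1.34% and 2.69% in Cx43 null, 0.768% and 2.30% in Cx43 heterozygous and 0.384% and 3.07% in Cx32 null brains, against 1.54% and 1.92% in wild type and 1.92% and 3.07% in wild type without replicate 1. The median SD of the 86 genes was 0.330, 0.254 and 0.243 in the Cx43 null, Cx43 heterozygous and Cx32 null lines, against 0.453 in wild type, and that of the 5122 genes without the motif 0.262, 0.179 and 0.196, against 0.396 in wild type. These counts are small, and a match of letters is not a site.

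The 50 bases before the gene start are shown for 4 genes that hold the motif and whose values are described here, 5′ to 3′ on the gene's strand (all +), with the motif in capitals.
Gkn2, chr6:87373315-87373364 (GRCm38.p6): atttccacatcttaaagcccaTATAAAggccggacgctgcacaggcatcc
Cyp2e1, chr7:140763769-140763818 (GRCm38.p6): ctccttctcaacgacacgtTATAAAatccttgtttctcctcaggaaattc
Myh3, chr11:67078250-67078299 (GRCm38.p6): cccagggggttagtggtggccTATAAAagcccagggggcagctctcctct
Vim, chr2:13574261-13574310 (GRCm38.p6): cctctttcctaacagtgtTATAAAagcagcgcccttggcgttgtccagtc
The motif begins 29, 31, 29 and 32 bases before the start of Gkn2, Cyp2e1, Myh3 and Vim. Vim, which encodes the vimentin filament of radial glia and astrocytes, had SDs of 0.20 in Cx43 null, 0.18 in Cx43 heterozygous and 0.28 in Cx32 null brains, against 1.02 in wild type and 0.70 without replicate 1.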

How the data were processed

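The authors deposited log2 ratios, 1 per spot and array, as a value table; the labels name neither log base, numerator nor normalization within an array, and they were read as log2 of brain over reference. Gene symbols came from the platform annotation, updated through gene identifiers to RefSeq (18267 of 18511 spots with 1 symbol). Spots with a value on all 16 arrays were kept (12640 spots), each array was centred on its median and spots of a gene were averaged. Between 21010 and 24819 spots had a value per array; intensities were not used here, and 4 arrays per genotype limit the precision. Absolute deviations from the genotype mean, scaled for group size, were compared with limma 3.58.1 (lmFit, eBayes, 2-sided) in R 4.3.3 over all 9829 features and 16 arrays, without a replicate block. The test was checked on simulated data. Alternatives covered scaling, missing values, out-of-step blocks, genes read by 1 spot, genes below -2, centring on the median, the range and leaving out each array; dropping wild-type replicate 1 together with the out-of-step blocks was added after seeing the data.

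Members and gene lists were chosen with earlier results of these data known. Genes were named by rule: the genes of the lines; the 10 loosest and 10 tightest over all genotypes; the 5 largest SDs per genotype; up to 5 per pair and direction past the test, or 3 as a description; and up to 2 of the loosest and 2 of the tightest of each list. Other genes shown were chosen after their values were seen. Figures were drawn with matplotlib 3.10.9 in Python 3.11.15.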

Additional observations from a re-analysis of the deposited data

Results flagged for a closer look

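Of 180 groups of 4 arrays tested for 1 value far from the other 3 by Dixon's criterion, 19 stood out. These are groups of named genes, many named for a large SD, so the chance rate of about 1 in 20 does not apply to them. Over all 6496 genes 1 array stood apart for 5.97% in Cx43 null, 5.37% in Cx43 heterozygous and 5.34% in Cx32 null brains, against 8.76% in wild type. 7 were wild-type replicate 1, which read 4.11 for Atp5pb, 4.35 for Ybx1, 3.51 for Bex2, 2.91 for Panx1, -0.45 for Clptm1l, -0.72 for Ide and -5.49 for Apoc1. Apoc1 lies on block 13, which was out of step on wild-type replicate 4 but not on replicate 1. Wild-type replicate 4 read 0.781 for Hk1, which has a spot on block 13. 4 were on the arrays and genes of block 25, with Phospho2 at 1.36 on Cx43 null replicate 2, 1.60 on Cx43 heterozygous replicate 4 and 1.49 on Cx32 null replicate 1, and Ambp at -0.30 on Cx43 heterozygous replicate 4. Outside those blocks, Cx43 heterozygous replicate 1 read -2.83 for Bex2, replicate 4 read -0.51 for Gkn2 and replicate 3 read -2.28 for Hbb-b1. Cx43 null replicate 3 read -0.0679 for Ide, replicate 4 read -6.23 for Scgb1a1 and the array labelled Cx43 null replicate 1 read -0.0365 for Zdhhc15, and Cx32 null replicate 4 read 2.13 for Panx1. The cause of these values was not tested.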

How the results depend on the processing

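Leaving out 1 array at a time gave ratios of median SDs from 0.519 to 1.035 for Cx43 null over wild type, 0.402 to 0.705 for Cx43 heterozygous over wild type, 0.4405 to 0.774 for Cx32 null over wild type, 1.145 to 1.64 for Cx43 null over Cx43 heterozygous, 1.044 to 1.49 for Cx43 null over Cx32 null and 0.816 to 1.01 for Cx43 heterozygous over Cx32 null. The first turned above 1 without wild-type replicate 1 (1.035) and the last without Cx32 null replicate 1 (1.01) or 4 (1.011). Without Cx43 null replicate 2 the adjusted exact permutation p became 0.0429 for Cx43 heterozygous over wild type (0.453), Cx32 null over wild type (0.497), Cx43 null over Cx43 heterozygous (1.64) and Cx43 null over Cx32 null (1.49). Without wild-type replicate 1 and the out-of-step blocks together the ratio for Cx43 null over wild type was 1.054.

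The number of features past the test moved far more. With 1 array left out it ran from 20 to 1990, 26 to 3002 and 23 to 2763 for Cx43 null, Cx43 heterozygous and Cx32 null against wild type, from 0 to 52, 0 to 37 and 0 to 3 between the lines, and against wild type reached 109, 266 and 245 with replicate 1 of that group dropped. The counts over 1500 came from leaving out wild-type replicates 2, 3 or 4. With 3 arrays, the largest deviation equals the sum of the other 2 by construction. Against wild type, in the order Cx43 null, Cx43 heterozygous and Cx32 null and beside 39, 140 and 76, the counts were 130, 636 and 302 with 3 of 4 values required, 8, 15 and 16 with deviations from the median, 20, 43 and 25 without the out-of-step blocks, and 5, 47 and 29 without these and wild-type replicate 1. Genes read by 1 spot gave 19 for Cx43 null and 46 for Cx32 null, quantile scaling gave 75 for Cx43 heterozygous, and values as deposited gave 216 for Cx32 null. Between the lines quantile scaling gave 3, 8 and 2 for Cx43 null against Cx43 heterozygous, Cx43 null against Cx32 null and Cx43 heterozygous against Cx32 null. Cyclic loess gave 2 and 1, and 3 of 4 values 1 and 1, in the last 2 of these pairs.

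Same-numbered arrays did not deviate together (r from -0.233 to 0.236 in 24 pairs), and an array correlated best with its own number in 10 of 48 cases. With the replicate number as a block the counts were 17, 540 and 46 against wild type and 0 between lines. Only the genes named by rule for passing the test, those with the largest SD differences per pair and direction, were counted here. Recomputed under all alternatives, their calls stayed past the threshold 275 times and no longer passed 174 times, and none changed direction. The other genes past the test are not in these counts.

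With 4 arrays per genotype and no signal over background, the spread of single genes is poorly known, and the cause of these shifts was not tested.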
